A study of Mus musculus with 2 samples.

Results

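The immediate early and heat shock genes described here were 36 genes chosen by name, 36 of 31053 gene rows measured. The choice was made with earlier results of these data known. Their counts beside the share of all genes are thus a description, not an independent test. Each of the 36 symbols was found once in the gene lists of both libraries. They were read in 4 groups: 10 AP-1/Egr factors (Fos, Fosb, Jun, Junb, Jund, Egr1, Egr2, Egr3, Atf3, Maff), 6 other early transcription factors (Myc, Nr4a1, Nr4a2, Klf6, Cebpb, Cebpd), 14 feedback regulators and other early genes (Ier2, Ier3, Ier5, Zfp36, Dusp1, Btg1, Btg2, Socs3, Nfkbia, Nfkbiz, Gadd45b, Gadd45g, Csrnp1, Kdm6b) and 6 heat shock genes (Hspa1a, Hspa1b, Hsph1, Dnajb1, Hspa8, Hsp90aa1). The study profiled single endothelial cells from the ileum of C57Bl/6 mice, all male, wild-type and 8 weeks old, as 1 group (WT_EC) of 2 libraries made with 3' droplet chemistry. Cells were sorted as EpCAM-, CD45- and CD31+, with PDPN- cells taken as blood and PDPN+ cells as lymphatic endothelium, and barcodes were not tied to a gate here. Whether each library was made from its own mouse or from a pool is not given in the labels. The p-values thus measure only how differences between classes vary between these 2 libraries, with spread shared over genes. This variation may be technical.

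Immediate early genes are switched on within minutes of a growth factor, cytokine, mechanical or stress signal, without the need for new protein. Their first products are transcription factors: Fos and Jun proteins pair to form AP-1, and Egr proteins bind GC-rich promoter sites. A further set, the feedback regulators, damps the same signals by dephosphorylating kinases, destroying short-lived mRNAs or holding NF-kB in the cytoplasm. Heat shock genes answer unfolded protein through the factor Hsf1 and encode chaperones. In endothelium both programs respond to blood flow and inflammation, and in many tissues enzymatic dissociation at warm temperature is known to induce them. No sample with another way of preparing cells was part of the comparison, so levels set in the living vessel and levels set during preparation cannot be told apart.

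Library 1 held 1026 barcodes and 3806199 UMIs, and library 2 held 6302 barcodes and 26645476 UMIs (a UMI counts 1 captured mRNA molecule). After filtering, 972 and 6061 cells remained, with median depths of 3366.5 and 3811 UMIs per cell, and 2 barcodes occurred in both libraries. Cells were put in 5 classes by raw UMIs of a few genes. Cells with at least 5 UMIs of Mmrn1, Lyve1 and Prox1 were lymphatic. Cells with at least 5 UMIs of Flt1, Cd34, Plvap and Esam were blood, of which those with at least 4 UMIs of Ackr1, Selp and Madcam1 were venous and those with at least 3 UMIs of Sema3g, Fbln5 and Stmn2 were arterial. The remaining blood cells were capillary, Plvap-led where Plvap exceeded Gpihbp1 plus Aqp1 and Gpihbp1/Aqp1-led otherwise. The classes held 76 and 976 lymphatic, 70 and 267 venous, 147 and 883 arterial, 358 and 2361 Plvap-led and 231 and 1082 Gpihbp1/Aqp1-led cells in libraries 1 and 2. Because the thresholds are in raw UMIs, a deeper cell meets them more easily, and median depth ran from 2145 UMIs in lymphatic cells of library 2 to 5397 in venous cells of library 2.

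Marker genes that the rule did not use followed the lymphatic, venous and arterial names, and those of blood and of capillary endothelium did so in part. The 8 lymphatic check genes (among them Pdpn, Flt4 and Reln) summed to 10604 and 10244 CPM (UMIs of a gene per total UMIs of the sum, scaled to a common total) in the lymphatic class and to between 127 and 254 CPM in the blood classes, although Ccl21a had no UMI in any of the 10 sums. The 6 venous check genes (among them Vwf, Icam1 and Sele) summed to 7827 and 6905 CPM in the venous class, and to at most 1922 CPM elsewhere. The 7 arterial check genes (among them Gja4, Gja5 and Jag1) summed to 2154 and 2139 CPM in the arterial class, and to at most 1051 CPM elsewhere. The 6 blood check genes (among them Kdr, Emcn and Ly6c1) summed to 1928 and 3125 CPM in venous cells, about the 2663 and 2432 CPM of lymphatic cells, and to 7412 to 10928 CPM in the arterial and capillary classes. The 6 capillary check genes (among them Rgcc, Cd36 and Cd300lg) summed to 6766 and 6774 CPM in Gpihbp1/Aqp1-led and 3856 and 3936 CPM in Plvap-led cells. They summed to 3090 and 3151 CPM in arterial cells and to at most 1685 CPM in venous and lymphatic cells. By these genes the Plvap-led class was nearer the arterial class than the other capillary class. Genes of other cell types were low but not absent. The 5 myeloid genes summed to 220 and 331 CPM in lymphatic, 465 and 428 CPM in venous and 22.2 to 44.1 CPM in the other classes, of which Cd74 alone gave 175 and 285 CPM in lymphatic and 465 and 419 CPM in venous cells. The highest sums of the remaining lists were 2148 CPM for red cell genes (Gpihbp1/Aqp1-led class of library 2), 570 CPM for epithelial genes (Plvap-led class of library 2), 414 CPM for fibroblast genes, 306 CPM for pericyte and smooth muscle genes, 73.6 CPM for B and plasma cell genes, 6.80 CPM for Ptprc, 4.48 CPM for glial genes and 0.865 CPM for T and NK cell genes. The part these cells or their free RNA played in the results below was not tested.

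The upstream sequences below show matches to known binding sites in members that the results turn on. RefSeq start sites of the GRCm38.p6 build were matched for 27 of the 36 genes, and the 250 bases upstream of each start were searched on both strands. The first pair is shown because Hspa1a and Hspa1b, which encode the same stress-inducible Hsp70-type chaperone, gave different calls in several comparisons, lie on chromosome 17 and share 159 of these 160 bases. Capitals mark a pair of heat shock element units, GAANNTTC, which 6.69% of the 32851 RefSeq promoters also hold.
Hspa1a (chr17:34972157-34972316, minus strand): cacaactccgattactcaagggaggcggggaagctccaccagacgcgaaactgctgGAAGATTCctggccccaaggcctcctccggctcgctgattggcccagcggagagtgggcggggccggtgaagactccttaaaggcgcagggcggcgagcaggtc
Hspa1b (chr17:34959239-34959398, minus strand): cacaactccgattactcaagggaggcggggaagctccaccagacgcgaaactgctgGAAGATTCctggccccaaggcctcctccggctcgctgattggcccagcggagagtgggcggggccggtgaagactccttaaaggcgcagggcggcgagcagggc
The next pair, Nfkbia and Ier3, were higher in both the venous and the Plvap-led class. Capitals mark a match to the NF-kB site, which 7.25% of all promoters hold.
Nfkbia (chr12:55492648-55492727, minus strand): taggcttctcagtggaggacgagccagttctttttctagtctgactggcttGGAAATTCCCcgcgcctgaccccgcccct
Ier3 (chr17:35821593-35821712, plus strand): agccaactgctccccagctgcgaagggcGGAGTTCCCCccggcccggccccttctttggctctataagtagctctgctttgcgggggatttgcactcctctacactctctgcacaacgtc
Dusp1 and Btg2 were lower in the venous class. Capitals mark the cAMP response element TGACGTCA, which 1.55% of all promoters hold.
Dusp1 (chr17:26508473-26508632, minus strand): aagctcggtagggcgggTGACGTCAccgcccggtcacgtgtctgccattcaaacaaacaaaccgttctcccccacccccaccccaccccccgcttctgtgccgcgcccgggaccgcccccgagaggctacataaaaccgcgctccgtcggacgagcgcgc
Btg2 (chr1:134079156-134079335, minus strand): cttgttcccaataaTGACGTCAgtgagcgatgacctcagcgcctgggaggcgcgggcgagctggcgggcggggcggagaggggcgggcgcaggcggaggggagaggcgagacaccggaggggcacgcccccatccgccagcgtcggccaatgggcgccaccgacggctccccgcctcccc
Zfp36 carried a CArG box, the site of serum response factor, in capitals here and in 1.47% of all promoters.
Zfp36 (chr7:28379229-28379308, minus strand): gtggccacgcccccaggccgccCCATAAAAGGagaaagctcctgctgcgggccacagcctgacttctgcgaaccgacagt

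In the same windows, GAANNTTC matched Jun, Hspa1a and Hspa1b, TGACGTCA matched Maff, Dusp1 and Btg2, the CArG box matched Egr2 and Zfp36, and the NF-kB site matched Fos, Fosb, Egr2, Maff, Ier3, Nfkbia, Hspa1a and Hspa1b. The AP-1 site TGANTCA matched Csrnp1, against 6.75% of all promoters. A gene counted as matched if any of its start sites held the site, while the shares of all promoters count start sites singly. The 27 genes had 38 upstream sequences, at most 5 per gene. The heat shock pair followed by a further NNGAA unit and the STAT site TTCCNGGAA matched 0 of the 27 genes, and 0.466% and 0.913% of all promoters. In venous against capillary cells Maff, with TGACGTCA, passed as higher, unlike Dusp1 and Btg2. Hspa1a, with the NF-kB site, passed as lower, unlike Nfkbia and Ier3. All of these are letter matches in a short window and carry no measure of binding.

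Members differed most between the lymphatic class and the rest, where 51.3% of all genes tested also passed the test described below. The lymphatic class had the lowest level of 29 of the 36 genes in both libraries and the highest of only Maff. The venous class had the highest level of 15 genes in both libraries, among them Atf3, Nr4a1, Nr4a2, Cebpd, Ier3, Zfp36, Socs3, Nfkbia, Nfkbiz and Kdm6b, and the lowest of Dusp1. Of the other classes, the arterial class was highest in both libraries for Hspa1a, the Plvap-led class was lowest for Klf6, and the Gpihbp1/Aqp1-led class was lowest for Cebpb and Hsph1. How often a class was the highest or lowest, or had a range apart from the others, was not counted over all genes tested. The counts of members therefore have no background share beside them. Levels are CPM of the UMIs summed over the cells of a class in a library, scaled by the trimmed mean of M values (TMM).

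**Figure D1:**
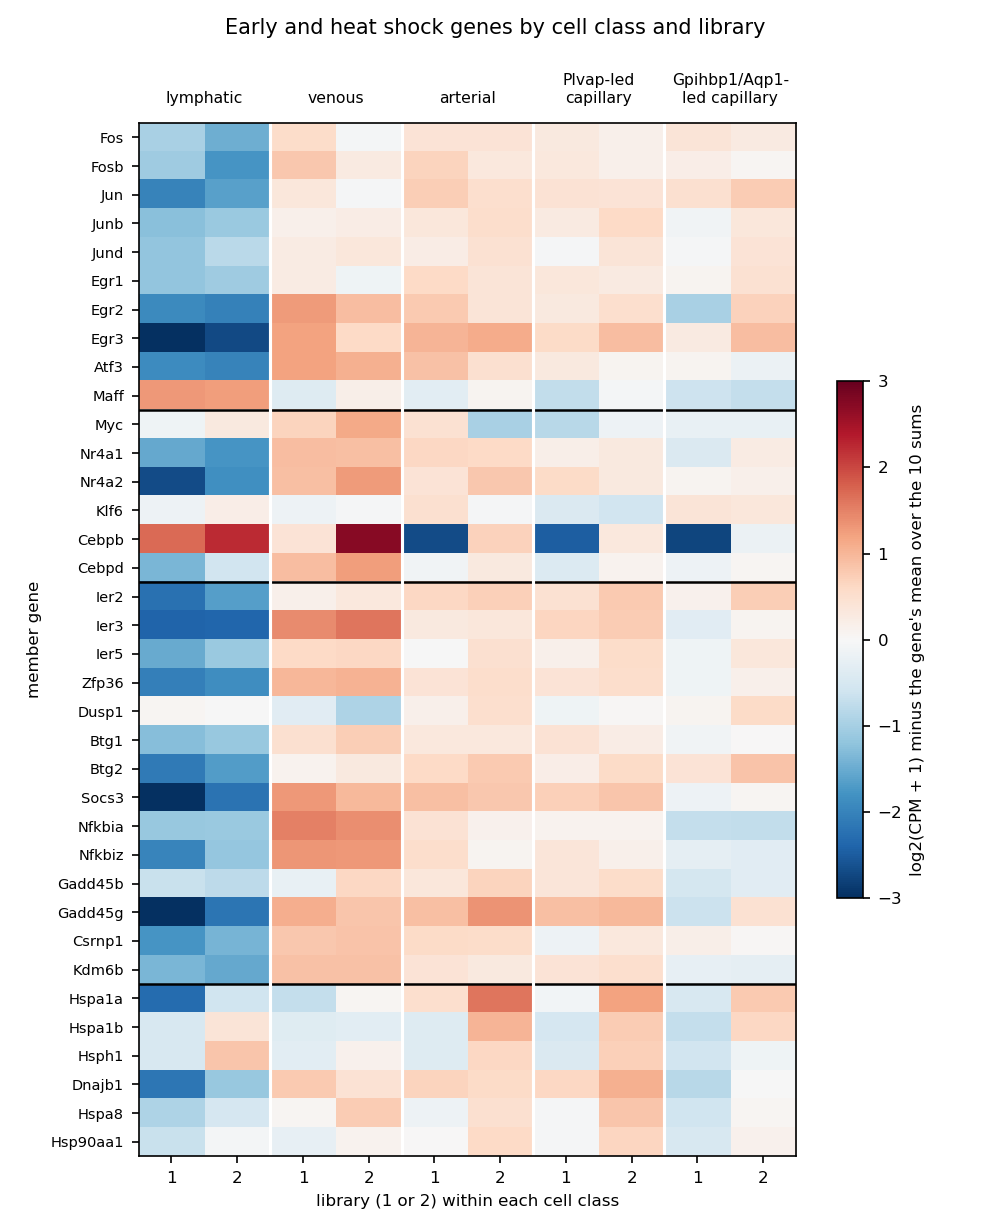
Level of each of the 36 genes (rows) in the 5 cell classes (column pairs, library 1 left and library 2 right), as log2(CPM + 1) minus the gene's own mean over the 10 sums; the colour scale stops at 3 and -3 log2 units, and horizontal lines part the 4 gene groups. The lymphatic columns are blue for 29 genes and red for Maff and Cebpb, and the Hspa1a row is higher in library 2 than in library 1 in all 5 classes.

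In lymphatic cells most AP-1/Egr factors and feedback regulators were lower than in the mean of the 4 blood classes, while Maff and Cebpb were higher. Of the 36 members, 29 were lower, 3 were higher and 4 did not pass (edgeR quasi-likelihood test, Benjamini-Hochberg adjusted p under 0.05), against 26.2% lower and 25.2% higher, 51.3% in all, of the 10558 genes tested. The members' median log2 fold change was -1.62, and that of all genes tested was 0.01. By group, 9 of 10 AP-1/Egr factors, 3 of 6 other transcription factors, 13 of 14 feedback regulators and 4 of 6 heat shock genes were lower. DESeq2 called 29 lower and 2 higher.

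Fos, the inducible partner in AP-1, had 779 and 551 CPM in lymphatic cells of libraries 1 and 2, against 1464 to 2240.1 CPM in the 8 sums of the blood classes. Jun, its partner, had 272 and 351 CPM in lymphatic cells, against 1064 to 1853 CPM in blood classes. Egr1, a zinc finger factor downstream of MAP kinase, had 739 and 794 CPM in lymphatic cells, against 1523 to 2556 CPM in blood classes. None of the 3 ranges overlapped, and the fitted log2 fold changes were -1.55 ± 0.11 (SE) for Fos, -2.19 ± 0.13 for Jun and -1.40 ± 0.12 for Egr1, with adjusted p of 4.4e-17, 4.09e-17 and 4.9e-12. Egr3, a relative of Egr1 that is known as a target of VEGF signalling in endothelium, had 3.67 and 9.90 CPM in lymphatic cells, against 85.3 to 164 CPM in blood classes. Its log2 fold change of -3.83 ± 0.26 was the lowest of the members and rested on 1 and 25 UMIs in lymphatic cells. Junb (-1.49), Jund (-1.25), Fosb (-1.84), Egr2 (-2.80) and Atf3 (-2.41), a stress-induced factor of the ATF/CREB family, were lower too. Maff, a small Maf protein with no activation domain of its own, went the other way: it had 140 and 135 CPM in lymphatic cells, against 33.2 to 64.0 CPM in blood classes, a log2 fold change of 1.47 ± 0.14 (adjusted p = 7.36e-14).

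Among the other early transcription factors, the orphan nuclear receptors Nr4a1 and Nr4a2 were lower in lymphatic cells, at log2 fold changes of -2.23 ± 0.15 and -2.59 ± 0.18, as was Cebpd (-1.12 ± 0.11), a factor of inflammatory and acute phase responses. Its relative Cebpb had 187 and 273 CPM in lymphatic cells, against 7.53 to 75.7 CPM in the blood classes of library 1 and 49.9 to 385 CPM in those of library 2. Cebpb passed as higher (log2 fold change 1.67 ± 0.38, adjusted p = 0.0202), but in library 2 the venous class was higher than the lymphatic one. Myc, a growth factor-induced regulator of cell growth, and Klf6, a Krüppel-like factor, did not pass, at 0.28 ± 0.28 and 0.12 ± 0.11.

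Among the feedback regulators, Ier3, which acts on cell survival and on ERK signalling, had 191 and 192 CPM in lymphatic cells, against 794 to 3061 CPM in blood classes (log2 fold change -3.05 ± 0.12, adjusted p = 3.31e-29). Socs3, an inhibitor of JAK and STAT3 signalling, had 88.2 and 176 CPM in lymphatic cells, against 734 to 2007 CPM in blood classes (-3.08 ± 0.15). Zfp36, which destroys mRNAs with AU-rich tails, had 283 and 322 CPM in lymphatic cells, against 1073 to 2434 CPM in blood classes (-2.44 ± 0.11). The lymphatic ranges lay wholly below the blood ranges for these 3 genes. Nfkbia, which holds NF-kB in the cytoplasm, had 500 and 508 CPM in lymphatic cells, against 664 to 3122 CPM in blood classes (-1.39 ± 0.10). The antiproliferative genes Btg1 and Btg2 (-1.50 and -2.35), the early gene products Ier2 and Ier5 (-2.35 and -1.63), the nuclear NF-kB cofactor Nfkbiz (-1.66), the stress signalling adaptors Gadd45b and Gadd45g (-1.06 and -3.23), the nuclear factor Csrnp1 (-1.90) and the histone demethylase Kdm6b (-1.85) were lower as well. Dusp1, a phosphatase that switches off stress-activated MAP kinases, was the exception: it had 562 and 530 CPM in lymphatic cells, against 284 to 795 CPM in blood classes, and its log2 fold change was 0.00 ± 0.14 (adjusted p = 0.98).

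The heat shock genes were split. Hspa1a had 132 and 435 CPM in lymphatic cells, against 401 to 933 CPM in blood classes of library 1 and 679 to 2001 CPM in those of library 2 (log2 fold change -1.62 ± 0.12, adjusted p = 5.52e-17). Hspa1b had 389 and 710 CPM in lymphatic cells, which lay inside the blood ranges of 331 to 428 CPM in library 1 and 438 to 1109.7 CPM in library 2, and did not pass (-0.10 ± 0.28, adjusted p = 0.801). The transcripts of this pair share 63.8% and 67.6% of their 31-base words but 0% in the last 400 bases, where 3' reads fall, and how the authors' counting split reads that match both was not tested. Dnajb1, the Hsp40-type partner that loads Hsp70 chaperones, had 36.7 and 76.1 CPM in lymphatic cells, against 94.1 to 355 CPM in blood classes (-1.78 ± 0.22). The constitutive chaperone Hspa8 (-0.92 ± 0.10) and the cytosolic Hsp90 gene Hsp90aa1 (-0.44 ± 0.10) were lower by less, and Hsph1, a nucleotide exchange factor of Hsp70 proteins, passed as higher (0.44 ± 0.14) although library 1 alone gave -0.050.

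Of the 29 lower calls, 26 held in each of 10 other settings (other filters on cells and genes, scalings, tools, a class rule on thinned cells and a fit without the library block), and of the 3 higher calls only Maff did. Library 1 alone, with 76 lymphatic cells, gave log2(CPM + 1) differences more than 1.5-fold from the fit for Nr4a2 (-3.17), Egr3 (-4.71), Socs3 (-3.88), Gadd45g (-4.24), Nfkbiz (-2.47), Dnajb1 (-2.47) and Cebpb (3.58). Lymphatic cells were also shallower (median 2894 and 2145 UMIs) than the blood classes (2999 to 5397). They had mitochondrial shares of 3.36% and 5.32%, against 1.87% to 4.11%. The part of depth and mitochondrial share in the differences was not tested beyond the settings named. Lymphatic and blood endothelium were sorted by different PDPN gates, and the part of the gate was not tested.

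From lists of related genes, the other early genes moved mostly with the members, at a median log2 fold change of -1.17. The endoplasmic reticulum stress genes had a median of -0.88. The other chaperones (-0.02) and the upstream signalling genes (-0.10) were near all genes tested, of which 26.2% were lower and 25.2% higher (median 0.01). Of 28 other early genes tested, 19 were lower and 3 higher in lymphatic cells, among them Klf2, a factor induced by blood flow (-2.15 ± 0.26), the AP-1 subunit Fosl2 (-2.09 ± 0.14), Nr4a3 (-2.05 ± 0.23) and Ier5l (-2.04 ± 0.15). Of 15 other chaperones tested, 4 were lower and 5 higher: the small heat shock protein Hspb1 (-2.37 ± 0.12) and the Hsp40-type Dnaja1 (-1.66 ± 0.11) fell, and Hspa4l, a relative of Hsph1 (2.50 ± 0.14), and the mitochondrial Hsp70 gene Hspa9 (1.06 ± 0.12) rose. Of 8 endoplasmic reticulum stress genes, 5 were lower, with Ddit3 at -1.59 ± 0.17, Xbp1 at -1.21 ± 0.12 and Hspa5 at -0.96 ± 0.11, and 2 were higher, with Hsp90b1 at 0.93 ± 0.09. Of 15 upstream signalling genes, 3 were lower and 3 higher. Mkl2, a coactivator of serum response factor, was at -2.97 ± 0.18, Srf itself at -0.77 ± 0.16, Creb1 at -0.43 ± 0.14, and the repressive partner Elk3 at 0.76 ± 0.10.

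**Figure D2:**
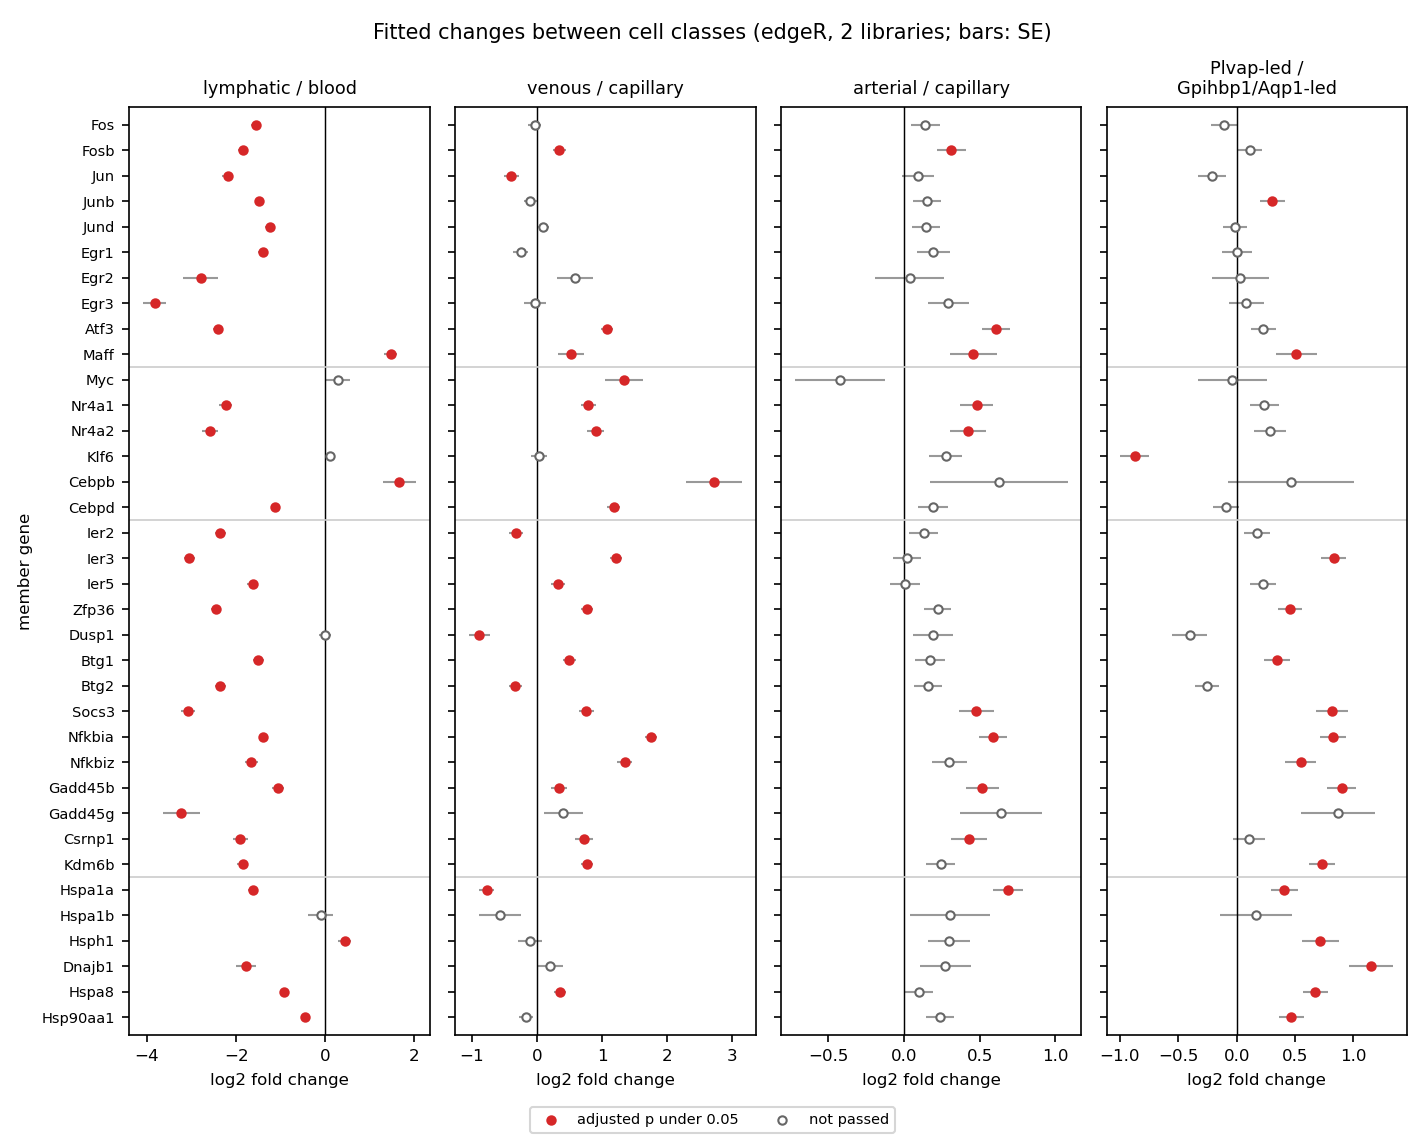
Fitted log2 fold change of each of the 36 genes (rows) in 4 comparisons of cell classes, with bars for 1 SE; filled points have an adjusted p under 0.05 and open points did not pass, and the horizontal scales differ between panels. Lymphatic over blood ran from -3.83 (Egr3) to 1.67 (Cebpb), and venous over capillary from -0.88 (Dusp1) to 2.71 (Cebpb).

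Venous cells carried more of the feedback regulators Nfkbia, Nfkbiz, Ier3, Zfp36 and Kdm6b, and of Atf3, Nr4a1, Nr4a2 and Cebpd than capillary cells, and less Jun, Ier2, Btg2, Dusp1 and Hspa1a. Of the 36 members, 19 were higher and 5 lower in venous cells, and 12 did not pass, against 14.6% higher and 10.7% lower, 25.2% in all, of the genes tested. The members' median log2 fold change was 0.35, and that of all genes tested was -0.03. Higher were 10 of 14 feedback regulators, 5 of 6 other transcription factors, 3 of 10 AP-1/Egr factors and 1 of 6 heat shock genes.

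Nfkbia had 3122 and 2899.5 CPM in venous cells of libraries 1 and 2, against 1188 and 1182 CPM in Plvap-led and 671 and 664 CPM in Gpihbp1/Aqp1-led cells (log2 fold change 1.75 ± 0.09, adjusted p = 8.05e-24). Nfkbiz had 918 and 904 CPM in venous cells, against 468 and 409 CPM in Plvap-led and 304 and 291 CPM in Gpihbp1/Aqp1-led cells (1.35 ± 0.11). Ier3 had 2687 and 3061 CPM in venous cells, against 1583 and 1726 CPM in Plvap-led and 794 and 1062 CPM in Gpihbp1/Aqp1-led cells (1.21 ± 0.09). The venous values of all 3 lay above every capillary value. Zfp36 (0.77 ± 0.09), Kdm6b (0.77 ± 0.10), Socs3 (0.76 ± 0.12), Csrnp1 (0.72 ± 0.14), Btg1 (0.50 ± 0.10), Gadd45b (0.34 ± 0.12) and Ier5 (0.32 ± 0.11) passed as higher too, and for Gadd45b library 1 alone gave -0.14.

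The AP-1 core did not follow. Fos had 2240.1 and 1464 CPM in venous cells, against 1871 and 1683 CPM in Plvap-led and 1975 and 1844 CPM in Gpihbp1/Aqp1-led cells, so that the venous values lay on both sides of the capillary ones (-0.03 ± 0.10, adjusted p = 0.872). Jun had 1398 and 1064 CPM in venous cells, against 1460.2 to 1853 CPM in capillary cells, and passed as lower (-0.39 ± 0.11, adjusted p = 0.00759). Junb (-0.10 ± 0.10), Jund (0.10 ± 0.10) and Egr1 (-0.25 ± 0.11) did not pass. Atf3 had 1539 and 1402 CPM in venous cells, against 595 to 816 CPM in capillary cells (1.07 ± 0.09, adjusted p = 1.58e-14), and Fosb (0.34 ± 0.10) and Maff (0.53 ± 0.20) were higher by less.

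Cebpd had 1359 and 1696 CPM in venous cells, against 538 to 772 CPM in capillary cells (1.18 ± 0.10). Cebpb had 75.7 and 385 CPM in venous cells, against 9.40 and 70.5 CPM in Plvap-led and 7.53 and 49.9 CPM in Gpihbp1/Aqp1-led cells (2.71 ± 0.43, adjusted p = 0.0121). Nr4a2 (0.90 ± 0.13), Nr4a1 (0.79 ± 0.12) and Myc (1.34 ± 0.30) were higher, Myc at 26.3 and 36.8 CPM in venous cells from 8 and 50 UMIs, and Klf6 did not pass (0.03 ± 0.12). Dusp1 had 421 and 284 CPM in venous cells, against 494 and 549 CPM in Plvap-led and 569 and 795 CPM in Gpihbp1/Aqp1-led cells (-0.88 ± 0.16, adjusted p = 0.000327). Btg2 (-0.33 ± 0.10) and Ier2 (-0.32 ± 0.11) were lower. Of the heat shock genes, Hspa1a had 401 and 679 CPM in venous cells, below the 469 to 1522 CPM of capillary cells within each library (-0.77 ± 0.12, adjusted p = 4.94e-07), and Hspa8 was higher (0.36 ± 0.09).

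Of the 19 higher calls, 12 held in each of the 10 other settings: Atf3, Btg1, Cebpd, Csrnp1, Ier3, Kdm6b, Myc, Nfkbia, Nfkbiz, Nr4a1, Nr4a2 and Zfp36. Of the 5 lower calls only Dusp1 did, and without TMM scaling the split of all genes turned, with 1149 higher and 1877 lower in venous cells, against 1539 and 1125 with it. Venous cells stood apart in depth, with medians of 4096.5 and 5397 UMIs, against 2999 to 4165 in capillary cells, in mitochondrial share, with 4.11% and 4.01%, against 1.87% to 2.68%, and in the Cd74 levels given above. In thinned venous cells the feedback sum had r with the mitochondrial share of -0.30 and -0.12 and the heat shock sum of -0.33 and -0.09, and with cells of at most 5% mitochondrial UMIs Ier5 and Btg2 no longer passed and Egr1 passed as lower (-0.31). Beyond the settings named, the part of these values in the differences was not tested.

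Of the 28 other early genes tested, 9 were higher and 13 lower in venous cells, against 14.6% and 10.7% of all genes tested. Their median log2 fold change was -0.51, against 0.35 for the members and -0.03 for all genes tested. Tnfaip3, which shuts down NF-kB signalling (2.79 ± 0.14), Nr4a3 (2.21 ± 0.16) and the ERK phosphatase Dusp2 (1.92 ± 0.15) rose, and Id1, a target of BMP signalling (-2.15 ± 0.13), fell. Of 15 upstream signalling genes 4 were higher and 1 lower, among the higher ones the NF-kB subunits Nfkb1 (1.29 ± 0.12) and Rela (0.91 ± 0.14), Creb1 (0.92 ± 0.14) and Srf (0.65 ± 0.16). Of 15 other chaperones 5 were higher and 2 lower, with Dnajb4 at 1.38 ± 0.22, Stip1 at 0.56 ± 0.18, Hspb1 at -0.69 ± 0.11 and Ahsa1 at -0.59 ± 0.19. Of 8 endoplasmic reticulum stress genes 3 were higher and 1 lower, with Xbp1 at 0.69 ± 0.11, Hspa5 at 0.63 ± 0.10, Calr at 0.31 ± 0.11 and Ddit3 at -0.52 ± 0.17.

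In arterial cells Hspa1a, Atf3, Nfkbia, Gadd45b and the Nr4a factors were higher than in capillary cells, and no member passed as lower. Of the 36 members, 10 were higher, 0 were lower and 26 did not pass, against 7.26% higher and 3.38% lower, 10.6% in all, of the genes tested. At an unadjusted p under 0.05, 17 were higher and 0 lower, and DESeq2 called 3 higher and 0 lower. The members' median log2 fold change was 0.26, and that of all genes tested was 0.00. Hspa1a had 933 and 2001 CPM in arterial cells, against 617 and 1522 CPM in Plvap-led and 469 and 1132 CPM in Gpihbp1/Aqp1-led cells, so that the arterial class was highest within each library (0.69 ± 0.10, adjusted p = 3.08e-07). Atf3 had 1234 and 939 CPM in arterial cells, against 595 to 816 CPM in capillary cells (0.61 ± 0.09, adjusted p = 5.7e-07). Nfkbia had 1489 and 1212 CPM in arterial cells, against 664 to 1188 CPM in capillary cells (0.59 ± 0.09, adjusted p = 1.56e-06). Gadd45b (0.52 ± 0.11), Nr4a1 (0.48 ± 0.11), Socs3 (0.48 ± 0.12), Maff (0.46 ± 0.15), Csrnp1 (0.43 ± 0.12), Nr4a2 (0.42 ± 0.12) and Fosb (0.31 ± 0.10) were the other higher genes. Against Plvap-led cells alone, Gadd45b, Nr4a2 and Socs3 had no common direction in the 2 libraries. Gadd45b had 287 and 360 CPM in arterial cells, against 293 and 330 CPM in Plvap-led cells. Nr4a2 had 163 and 217 CPM, against 184 and 152 CPM. Socs3 had 1523 and 1425 CPM, against 1333 and 1466 CPM. Hspa1a, Atf3, Nfkbia, Nr4a1, Maff, Csrnp1 and Fosb were above the Plvap-led level within each library. Fos, Jun, Junb, Jund and Egr1 had log2 fold changes between 0.09 and 0.19 and did not pass.

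Of the 10 arterial calls, Atf3 and Nfkbia held in each of the 10 other settings, and the number of members called higher dropped to 2 without the library block. Of the other lists, 3 of 28 other early genes were higher, with Ppp1r15a, which restarts translation after stress, at 0.81 ± 0.10, and 1 of 15 upstream genes, the kinase Mapk3, at 0.37 ± 0.10. None of 15 other chaperones and 8 endoplasmic reticulum stress genes passed, against 7.26% higher and 3.38% lower of all genes tested.

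Between the 2 capillary classes the feedback regulators and the heat shock genes were mostly higher in Plvap-led cells, while Fos, Jun and Egr1 did not pass. Of the 36 members, 15 were higher and 1 lower in Plvap-led cells and 20 did not pass, against 13.6% higher and 11.7% lower, 25.4% in all, of the genes tested. The members' median log2 fold change was 0.26, and that of all genes tested was -0.01. Higher were 8 of 14 feedback regulators, 5 of 6 heat shock genes, 2 of 10 AP-1/Egr factors and none of 6 other transcription factors.

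Dnajb1 had 258 and 355 CPM in Plvap-led cells of libraries 1 and 2, against 94.1 and 168 CPM in Gpihbp1/Aqp1-led cells (log2 fold change 1.15 ± 0.19, adjusted p = 0.000385). Hspa8 had 1675 and 3046 CPM in Plvap-led cells, against 1141 and 1778 CPM in Gpihbp1/Aqp1-led cells (0.67 ± 0.11, adjusted p = 9.13e-07). For both genes the Plvap-led value was the higher one within each library. Hsph1 (0.72 ± 0.16), Hsp90aa1 (0.47 ± 0.11) and Hspa1a (0.41 ± 0.12) passed too, and Hspa1b did not (0.17 ± 0.31, adjusted p = 0.78), at 386 and 926 CPM in Plvap-led and 331 and 836 CPM in Gpihbp1/Aqp1-led cells.

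Gadd45b had 293 and 330 CPM in Plvap-led cells, against 157 and 179 CPM in Gpihbp1/Aqp1-led cells (0.90 ± 0.13, adjusted p = 5.35e-08). Socs3 had 1333 and 1466 CPM in Plvap-led cells, against 734 and 850 CPM in Gpihbp1/Aqp1-led cells (0.81 ± 0.14), and Ier3 had 1583 and 1726 CPM, against 794 and 1062 CPM (0.83 ± 0.11). The Plvap-led values of these 3 genes lay above both Gpihbp1/Aqp1-led values. Nfkbia (0.83 ± 0.11), Kdm6b (0.73 ± 0.11), Nfkbiz (0.55 ± 0.13), Zfp36 (0.46 ± 0.10) and Btg1 (0.35 ± 0.11) were the other feedback regulators that passed. Gadd45g had 549 and 572 CPM in Plvap-led cells, against 188 and 406 CPM in Gpihbp1/Aqp1-led cells, and did not pass (0.87 ± 0.32, adjusted p = 0.135). Klf6 was the only member that fell, with 296 and 266 CPM in Plvap-led cells, against 518 and 503 CPM in Gpihbp1/Aqp1-led cells (-0.87 ± 0.12, adjusted p = 2.28e-07). Fos (-0.11 ± 0.11), Jun (-0.21 ± 0.12) and Egr1 (-0.00 ± 0.13) did not pass, while Junb (0.31 ± 0.11) and Maff (0.51 ± 0.18) did, and for Maff library 1 alone gave -0.13.

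Of the 15 higher calls, Dnajb1, Gadd45b, Ier3, Kdm6b and Nfkbia held in each of the 10 other settings, as did the lower call of Klf6. Without the library block 6 members were higher, and without TMM scaling the split of all genes turned, with 1043 higher and 1864 lower, against 1441 and 1239 with it. Of 28 other early genes, 12 were higher and 6 lower in Plvap-led cells, with the ERK phosphatase Dusp5 at 2.61 ± 0.24, Tnfaip3 at 1.58 ± 0.19, Trib1 at 1.48 ± 0.14 and Rhob at -0.94 ± 0.12. Over all genes tested, 13.6% were higher and 11.7% lower. Of 8 endoplasmic reticulum stress genes 5 were higher, among them Hspa5 (0.81 ± 0.11), Ddit3 (0.63 ± 0.14), Dnajb9 (0.54 ± 0.14) and Pdia4 (0.51 ± 0.15). Of 15 other chaperones 3 were higher, with Hsp90ab1 at 0.62 ± 0.11 and Hspe1 at 0.37 ± 0.13, and of 15 upstream genes 3 were higher and 1 lower, with Mkl2 at 0.75 ± 0.12, Srf at 0.67 ± 0.15, Nfkb1 at 0.59 ± 0.13 and Elk4 at -0.57 ± 0.13.

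Because venous and arterial cells had each been set against the same capillary cells, they were also compared directly, a comparison added after the values were seen. Of the 36 members, 10 were higher and 7 lower in venous than in arterial cells and 19 did not pass, against 11.6% higher and 10.2% lower, 21.7% in all, of the genes tested. Among the genes higher in venous cells were Nfkbia, at 3122 and 2899.5 CPM in venous, against 1489 and 1212 CPM in arterial cells (1.17 ± 0.11, adjusted p = 2.84e-13), Ier3 (1.19 ± 0.11), Nfkbiz (1.05 ± 0.14) and Cebpd (0.99 ± 0.12). Lower in venous cells were Hspa1a, at 401 and 679 CPM in venous, against 933 and 2001 CPM in arterial cells (-1.46 ± 0.13, adjusted p = 2.56e-13), Dusp1 (-1.07 ± 0.18), Jun (-0.49 ± 0.13), Btg2 (-0.49 ± 0.11), Ier2 (-0.45 ± 0.12), Egr1 (-0.44 ± 0.13) and Hsp90aa1 (-0.40 ± 0.12). Myc passed as higher (1.76 ± 0.36), but library 1 alone gave 0.21 and library 2 alone 2.10. Of the other lists, 7 of 28 other early genes were higher and 13 lower, and 4 of 15 upstream genes were higher and 1 lower. Of 15 other chaperones 3 were higher and 3 lower, and of 8 endoplasmic reticulum stress genes 2 were higher and 0 lower. The other early genes had a median log2 fold change of -0.61, against 0.05 for the members and -0.02 for all genes tested.

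Some members also differed between the 2 libraries. Hspa1a was higher in library 2 than in library 1 in all 5 classes, as were Hsph1, Hspa8, Hsp90aa1 and Hspa1b. Summed over the 6 heat shock genes, the share of all UMIs was 0.673% in library 2 and 0.376% in library 1 in Plvap-led cells, and 0.684% and 0.407% in arterial cells. The AP-1/Egr sum had no common direction. It was 1.14% in library 2 and 1.15% in library 1 in Plvap-led cells, 0.957% and 1.202% in venous cells and 1.28% and 1.13% in Gpihbp1/Aqp1-led cells. Its genes moved in opposite directions. Fos, Fosb and Atf3 were lower in library 2 in all 5 classes, with Fos at 1464 CPM in library 2 and 2240.1 CPM in library 1 in venous cells. Junb and Jund were higher in library 2 in all 5 classes, with Junb at 3224 and 2533 CPM in Plvap-led cells. Cebpb was higher in library 2 in all 5 classes, for example at 92.8 CPM in library 2 and 8.07 CPM in library 1 in arterial cells and at 385 and 75.7 CPM in venous cells. The 2 libraries are 1 group by their labels, so what sets these values apart was not tested.

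Single cells were then compared after thinning each to 2000 UMIs, which left out 22 and 446 lymphatic cells and 8 to 167 cells of each other class and library. The AP-1/Egr factors made up a median of 0.15% and 0.15% of UMIs in lymphatic cells of libraries 1 and 2 (3 UMIs per cell), 0.725% and 0.80% in venous, 1.45% and 1.15% in arterial, 1.10% and 1.10% in Plvap-led and 1.0% and 1.15% in Gpihbp1/Aqp1-led cells. Unthinned, the lymphatic medians were 0.141% and 0.189%. Feedback regulators had medians of 0.15% and 0.15% in lymphatic cells, 1.43% and 1.35% in venous and 0.70% to 1.30% in the remaining classes. Heat shock genes had medians of 0.10% and 0.15% in lymphatic cells, 0.225% and 0.35% in venous, 0.35% and 0.60% in arterial, 0.30% and 0.60% in Plvap-led and 0.20% and 0.40% in Gpihbp1/Aqp1-led cells. No class present is known to lack these genes, so the level that free RNA alone would give was not measured.

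**Figure D3:**
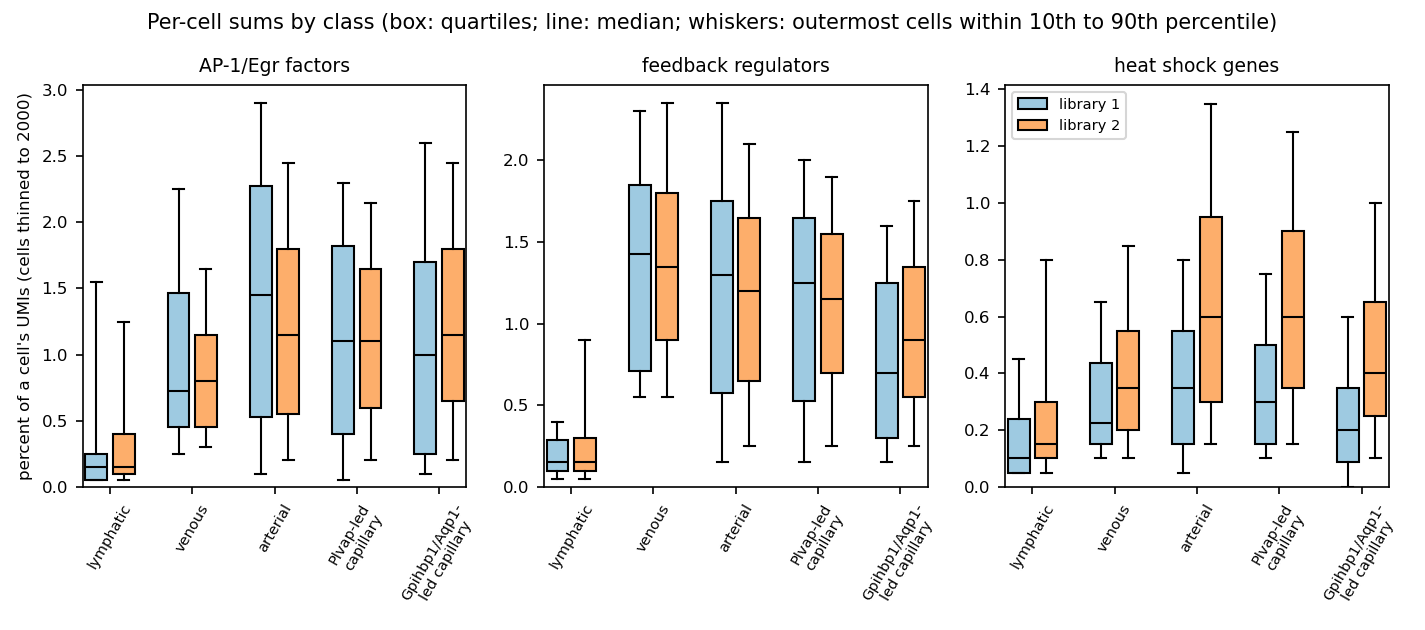
Share of each cell's UMIs taken by 3 gene groups, in cells thinned to 2000 UMIs, by class and library; boxes span the quartiles, the line is the median, and whiskers reach the outermost cells within the 10th to 90th percentile. Lymphatic medians are 0.15% for AP-1/Egr factors in both libraries, with upper whiskers above 1%, and heat shock medians are higher in library 2 in every class.

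The low lymphatic level was not shared by all lymphatic cells. The 90th percentile of the AP-1/Egr sum was 1.62% and 1.25% of UMIs in lymphatic cells, about the level of the median arterial cell. The variance of the UMIs per cell was 37.0 and 22.9 times the mean in lymphatic cells, against 9.30 to 17.9 times in the other classes. Of the thinned lymphatic cells, 7 of 54 (12.96%, 95% exact Clopper-Pearson interval 5.37% to 24.9%) and 62 of 530 (11.7%, 9.09% to 14.7%) reached the median of Plvap-led cells, 1.1%, a description made after the sums were seen. The intervals cover counting error only.

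In those cells the other groups were high as well. Feedback regulators took 1.31% and 1.27% of UMIs in them, against 0.156% and 0.201% in the rest of the lymphatic cells. Heat shock genes took 0.814% and 1.58%, against 0.129% and 0.202%, and the other early transcription factors 0.218% and 0.239%, against 0.0863% and 0.123%. The cells carried lymphatic check genes at 8953 and 9186 CPM, against 10643 and 10323 CPM in the rest, and blood check genes at 2689 and 2100 CPM, against 2540 and 2389 CPM. Their median depth was 3246 and 3240.5 UMIs, against 3495 and 3131.5, and their median Scrublet doublet score was 0.0769 and 0.0503, against 0.0122 and 0.0181 in the rest and 0.0447 and 0.0444 in Plvap-led cells. The part of doublets in these cells was not tested.

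Within a class, cells that were high in 1 AP-1/Egr gene tended to be high in the others. Over pairs of AP-1/Egr genes with a UMI in at least 20% of cells, the median Pearson r across cells (natural log of counts per 10000 plus 1) was 0.60 and 0.38 in arterial cells of libraries 1 and 2, 0.57 and 0.40 in Plvap-led, 0.58 and 0.43 in Gpihbp1/Aqp1-led, 0.36 and 0.22 in venous and 0.24 and 0.23 in lymphatic cells. The limit was applied within each class and library, so the medians rest on different genes. Egr3, for example, met it in Plvap-led cells but not in lymphatic cells. Pairs of non-member genes had medians of 0.01 to 0.027 in the same cells, which share library, depth and scaling. Their 95th percentile was 0.23 and 0.09 in lymphatic, 0.24 and 0.14 in venous and 0.068 to 0.16 in the other cells. These genes were not matched to the members in level. In thinned cells the AP-1/Egr medians were 0.51 and 0.36 in arterial, 0.50 and 0.29 in Plvap-led, 0.53 and 0.36 in Gpihbp1/Aqp1-led, 0.34 and 0.20 in venous and 0.30 and 0.32 in lymphatic cells.

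Fos and Egr1 were the most closely linked pair in 3 classes, with r of 0.77 and 0.70 in arterial, 0.79 and 0.70 in Plvap-led and 0.77 and 0.65 in Gpihbp1/Aqp1-led cells, and they reached 0.56 and 0.60 in venous cells. In lymphatic cells Junb and Egr1 were most closely linked (0.59 and 0.54). In venous cells Hspa1a and Hspa1b were (0.80 and 0.70), the pair that gave different calls between classes above. Pairs within the other early transcription factors had medians between -0.05 and 0.14 in the 10 class and library sets. Against the AP-1/Egr sum in Plvap-led cells of libraries 1 and 2, Nr4a1 had r of 0.41 and 0.44, Nr4a2 of 0.35 and 0.25 and Klf6 of 0.22 and 0.14. The 6 heat shock genes had pair medians between 0.20 and 0.38.

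**Figure D4:**
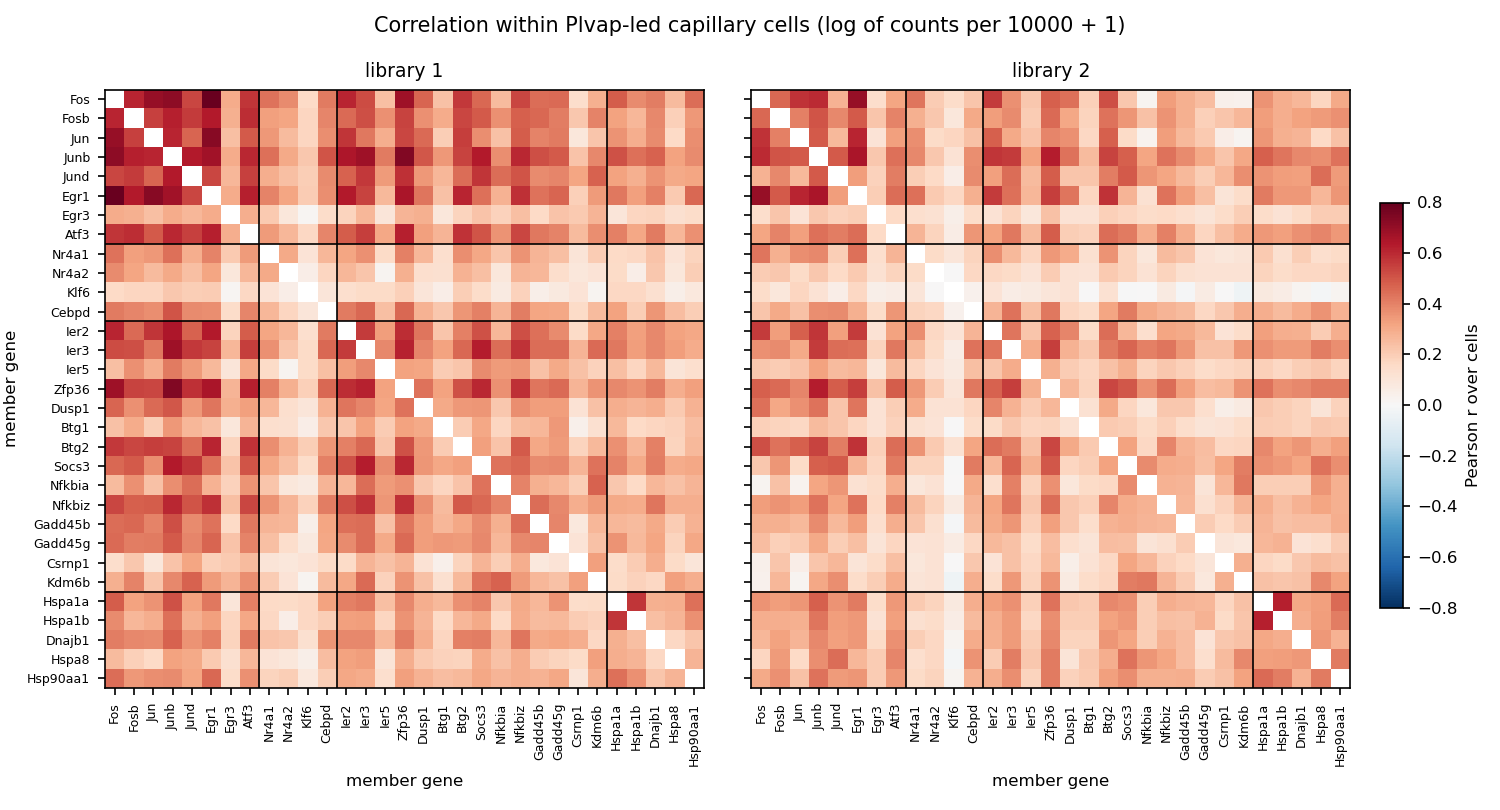
Pearson r over Plvap-led cells of library 1 (left) and library 2 (right) between 31 members with a UMI in at least 20% of cells in both libraries; lines part the gene groups in the order AP-1/Egr factors, other early transcription factors, feedback regulators and heat shock genes. Fos with Egr1 reaches 0.79 and 0.70, Hspa1a with Hspa1b stands out among the heat shock genes, and Fos with Klf6 is at 0.16 and 0.14.

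The sums of the gene groups were also compared from cell to cell. In thinned cells the AP-1/Egr sum and the feedback sum had r of 0.83 and 0.76 in arterial, 0.80 and 0.75 in Plvap-led and 0.77 and 0.76 in Gpihbp1/Aqp1-led cells, against 0.59 and 0.57 in venous and 0.60 and 0.56 in lymphatic cells. The AP-1/Egr and heat shock sums had r of 0.63 and 0.61 in arterial, 0.61 and 0.59 in Plvap-led, 0.48 and 0.51 in Gpihbp1/Aqp1-led, 0.59 and 0.53 in lymphatic and 0.31 and 0.31 in venous cells. The sum of the other early transcription factors had r with the AP-1/Egr sum of 0.41 to 0.60 in arterial and capillary cells and 0.16 to 0.29 in lymphatic and venous cells. Its r with the feedback sum ran from 0.12 (lymphatic, library 2) to 0.58 (arterial, library 1), and with the heat shock sum from 0.09 (venous, library 1, and lymphatic, library 2) to 0.38 (arterial, library 2). The thinned AP-1/Egr sum had r with the log of a cell's depth between -0.0804 and 0.172, and with its mitochondrial share between -0.214 and 0.141.

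Among 2703 genes that were no members and had a UMI in at least 20% of Plvap-led cells, the 10 whose level was most like the AP-1/Egr sum were ranked by the lower r of the 2 libraries. They were Sertad1 (0.50 and 0.49 in libraries 1 and 2), the cell cycle inhibitor Cdkn1a (0.54 and 0.48), Ppp1r15a (0.56 and 0.44), Hexim1, an inhibitor of transcription elongation (0.45 and 0.43), Ppp1r10 (0.53 and 0.42), the endothelial early gene Apold1 (0.54 and 0.40), Sbno2 (0.59 and 0.39), the stress factor Atf4 (0.49 and 0.39), Klf4 (0.51 and 0.39) and the Notch target Hes1 (0.44 and 0.38). The median r over all genes compared was 0.0026 and -0.022. Of members outside the sum, Zfp36 had 0.73 and 0.68, Ier2 0.67 and 0.62, Btg2 0.58 and 0.62 and Ier3 0.65 and 0.58.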

How the data were processed

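The authors deposited raw UMI counts per gene and barcode, whole numbers with no normalization per the file headers; the submitters' processing notes name bcl2fastq 2.2, Cell Ranger 3.1.0 and the mm10 build. The members and gene lists were chosen with earlier results of these data known. Barcodes under 500 genes or over 15% mitochondrial UMIs were dropped, leaving 978 and 6067, and Scrublet (scanpy 1.11.5) removed 6 in each library, 0.0989% in library 2, where it is taken not to have worked. Counts were summed per library and class (10 sums) and fitted in R 4.3.3 with edgeR 4.0.16 (robust quasi-likelihood, TMM, minimum count 10, library as block, 4 residual degrees of freedom, 10558 genes, Benjamini-Hochberg over all). The library is the block since its 5 classes share 1 sample label, which is where the pairing comes from. Each gene's spread was drawn towards that of all genes, with a median of 49.9 prior degrees of freedom. Cells meeting both the lymphatic and blood rules (2 and 93), both the venous and arterial rules (28 and 171) or none (60 and 228) were left out. Data were also simulated with the same dispersion (0.0052) for all genes, equal class means apart from the changed genes, and no library effect. In them the fit for lymphatic over blood recovered 81.3% of 96 genes changed by 1 log2 unit and 98.0% of 98 changed by 2. There were 10103 genes run. The real data lack these simple settings, so the shares do not measure recovery in them. DESeq2 1.42.0 was an alternative. All 36 members are named. From each other list up to 4 passing genes per comparison are named, those with the largest change at 50 CPM or more in the higher class and 1 direction in both libraries. Upstream sequences are RefSeq's, and class genes are not reported as results.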

Additional observations from a re-analysis of the deposited data

Results flagged for a closer look

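Cells left out of the 5 classes also carried these genes, above what a count of 0 allows. The 36 members took 0.581% of UMIs in the 2 cells of library 1 and 2.07% in the 93 cells of library 2 that met both the lymphatic and the blood rule. They took 3.31% and 3.17% in the 28 and 171 cells that met both the venous and the arterial rule, and 2.12% and 1.38% in the 60 and 228 cells that met no rule. In the classes the same share was 1.07% and 1.19% in lymphatic cells and 2.37% to 3.31% in the blood classes.

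The effects of the venous and the arterial class, each against the same capillary cells, differed by the test of venous against arterial for 17 members. The venous minus arterial log2 value was 1.76 for Myc, 1.19 for Ier3, 1.17 for Nfkbia, 1.05 for Nfkbiz, 0.99 for Cebpd, 0.55 for Zfp36, 0.53 for Kdm6b, 0.48 for Nr4a2, 0.46 for Atf3 and 0.33 for Btg1. It was -1.46 for Hspa1a, -1.07 for Dusp1, -0.49 for Jun, -0.49 for Btg2, -0.45 for Ier2, -0.44 for Egr1 and -0.40 for Hsp90aa1. Of these, Cebpd, Ier3, Nfkbia, Nfkbiz and Zfp36 stayed higher and Dusp1 stayed lower in each of the 10 other settings.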

How the results depend on the processing

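No member's log2 fold change turned in sign past the threshold in the 10 other settings that kept both libraries. Of 360 values per comparison, 354 (lymphatic), 316 (venous), 327 (arterial) and 326 (Plvap-led) kept their side of the threshold. Those that passed also kept their direction, while direction was not counted for those that passed in neither fit. Without the library block, which pairs classes of 1 library, 1 member was higher in lymphatic cells (3 with it), 1 was lower in venous cells (5 with it), 2 were higher in arterial cells (10 with it) and 6 in Plvap-led cells (15 with it), and the genes called were 534 for arterial (1124 with it) and 1429 for Plvap-led cells (2680 with it). DESeq2 called 1766 genes in venous, 510 in arterial and 1353 in Plvap-led cells, with 3 members lower in venous and 3 higher in arterial cells. With no scaling beyond library size the median of all genes moved to -0.20 in venous, -0.15 in Plvap-led and 0.10 in lymphatic cells, and 8 members were lower in venous and 4 in Plvap-led cells. Lower members in Plvap-led cells numbered 2 at 1000 genes and 10% mitochondrial UMIs, 2 at 5% mitochondrial UMIs and 2 with no filter on low counts (1 as reported). Lower members in arterial cells numbered 1 in cells of 2000 to 8000 UMIs and 1 by the class rule on thinned cells (0 as reported). The cause of these moves was not tested. Leaving out 1 library leaves no residual degrees of freedom, so it gave values and no counts: in libraries 1 and 2 alone Hsph1 gave -0.050 and 0.50 (lymphatic), Gadd45b -0.14 and 0.51 (venous) and Maff -0.13 and 0.67 (Plvap-led). Lymphatic sums of 1, 2 and 4 UMIs limit Egr3, Egr2 and Myc in library 1.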
